A study of Mus musculus with 8 samples.

Results

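The regions described here are the constant gene-end regions of C/EBPα binding in mouse bone marrow progenitors: places where a peak was called in every anti-C/EBPα library and that lie beside the start or the far end of a protein-coding gene. Peaks of the 6 libraries that shared at least 1 bp were joined into 259446 regions, of which 23028 on the autosomes were called in all 6. Among these, 5369 had their midpoint within 1 kb of an annotated end of an mm10 RefSeq protein-coding gene, which is 2.07% of all regions. Being called in all 6 libraries and lying near a gene end chose these regions, so neither property is a finding. The other constant regions on the autosomes were 9091 that lay inside a gene and 8568 that lay between genes, each over 1 kb from a gene end.

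The libraries came from CUT&RUN, in which an antibody guides a nuclease to its target and the DNA released next to it is sequenced. The sorted cells were lineage-negative, KIT high to intermediate and FLT3-positive bone marrow cells with 1 of 3 genotypes of the -165-kb enhancer of Zeb2: the variants named DC and DE, and WT. Zeb2 encodes a zinc-finger repressor that acts in myeloid and dendritic cell fate. Each genotype had 1 library in batch 1 and 1 in batch 2. The labels describe neither the changes carried by DC and DE nor the age or number of the mice, and the peak lists hold no RNA with which the sorted cell type could be checked. A pair of WT libraries made with control IgG was not analysed here.

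C/EBPα is a basic leucine zipper transcription factor needed for the step from multipotent to granulocyte and monocyte progenitors, and binds DNA as a dimer. Its sites in myeloid cells lie mostly in enhancers away from genes, but many also lie in promoters. Promoters of genes used in all cells are commonly rich in CpG dinucleotides and hold sites for SP/KLF, NFY, ETS and NRF1 factors. CUT&RUN and related nuclease methods can also release DNA from open chromatin that the antibody's target does not bind. The local background is given beside the summit values here, but whether it captures such release was not tested.

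The sequences that carry the contrast described below are shown first, from RefSeq promoters of build GRCm38.p6 (the patched form of mm10), 5′ to 3′ on the gene's own strand. Each window of 120 bases lies around the median summit of the 6 libraries. The first 5 had high fold enrichment and a match to the C/EBP motif TTGCNNAA, on either strand, within 50 bp of the summit. Capitals mark that match. These sequences were chosen after their values were seen.
Irf2 (chr8:46739526-46739645, plus strand): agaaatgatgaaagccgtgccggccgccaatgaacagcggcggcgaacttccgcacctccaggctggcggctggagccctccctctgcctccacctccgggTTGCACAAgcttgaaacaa
Rnf149 (chr1:39577478-39577597, minus strand): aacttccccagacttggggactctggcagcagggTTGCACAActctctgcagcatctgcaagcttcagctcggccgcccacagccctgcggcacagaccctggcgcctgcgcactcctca
Pdss1 (chr2:22895282-22895401, plus strand): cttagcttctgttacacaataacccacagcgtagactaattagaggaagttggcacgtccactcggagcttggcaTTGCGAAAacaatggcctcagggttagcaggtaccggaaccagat
Smad6 (chr9:64022035-64022154, minus strand): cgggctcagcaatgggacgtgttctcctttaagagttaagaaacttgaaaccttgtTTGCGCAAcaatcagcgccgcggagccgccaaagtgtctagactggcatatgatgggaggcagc
Pdcd10 (chr3:75556890-75557009, minus strand): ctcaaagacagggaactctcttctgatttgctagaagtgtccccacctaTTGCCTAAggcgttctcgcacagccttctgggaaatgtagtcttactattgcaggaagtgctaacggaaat
The next 3 had low fold enrichment, more signal in batch 2 than in batch 1 and no match to TTGCNNAA in the promoter. Capitals mark matches to the SP/KLF motif GGGCGG or its complement.
Rnf44 (chr13:54694006-54694125, minus strand): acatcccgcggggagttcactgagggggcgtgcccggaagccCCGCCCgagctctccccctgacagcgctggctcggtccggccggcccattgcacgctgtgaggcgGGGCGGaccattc
Rap1b (chr10:117846079-117846198, minus strand): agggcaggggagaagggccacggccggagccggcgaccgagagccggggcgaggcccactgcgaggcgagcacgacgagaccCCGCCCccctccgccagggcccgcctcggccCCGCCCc
Cuta (chr17:26939561-26939680, minus strand): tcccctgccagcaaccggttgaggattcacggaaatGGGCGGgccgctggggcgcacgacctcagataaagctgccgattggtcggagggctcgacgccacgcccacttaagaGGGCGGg
The promoter of Cebpa itself, which also carried one of the regions, held no TTGCNNAA in its 300 bases and none stands in the window shown.
Cebpa (chr7:35119107-35119226, plus strand): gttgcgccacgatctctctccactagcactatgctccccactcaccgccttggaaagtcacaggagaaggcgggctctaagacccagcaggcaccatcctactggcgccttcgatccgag
Irf2 encodes an interferon regulatory factor, Pdss1 a subunit of the enzyme that makes the side chain of coenzyme Q, Smad6 an inhibitor of BMP signalling, and Rnf149 and Rnf44 encode RING-finger proteins. The mean fold, which is the geometric mean over the 6 libraries of the deposited ratio of summit pileup to local background, was 136 at Irf2 and 72.9 at Smad6, against 6.12 at Rnf44 and 6.09 at Cuta.

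Most of the regions lay at gene starts. Of the nearest ends 4058 were a start, 361 were a far end and 950 belonged to a gene whose strand was not known, so 91.8% of those of known strand were starts. The median distance from midpoint to the nearest end was 137 bp, with an interquartile range of 60 to 341 bp. A region lay within 1 kb of an end of 5686 of the 20665 autosomal protein-coding genes, which is 27.5%. There were 943 regions near 2 or more genes, and 528 of the regions lay near the starts of genes on opposite strands. At 269 genes both ends carried a region.

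The summits were not centred on the start site but lay upstream of it. Over the 3938 regions whose median summit lay within 1 kb of a RefSeq promoter's start, that summit lay a median of 78 bp upstream of it, with an interquartile range from 151 to 10 bp upstream, and 77.4% of the summits were upstream. The median offset per library was -81 and -75 bp in DC, -80 and -75 bp in DE and -83 and -73 bp in WT, in batches 1 and 2. The position thus varied by 10 bp at most between the medians of the 6 libraries, in which the summits of a region spanned a median of 72 bp.

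**Figure D1:**
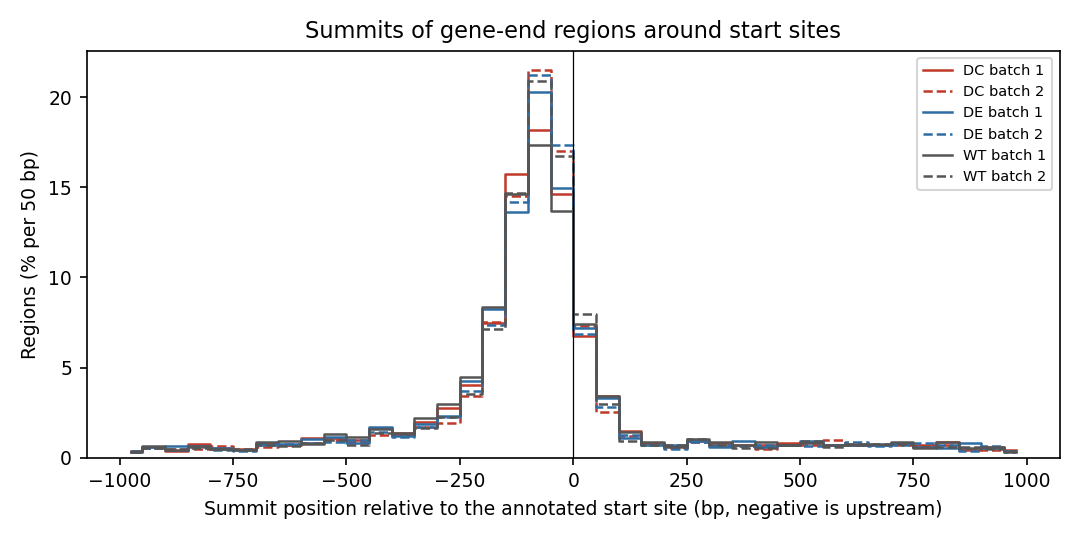
Share of gene-end regions (%) per 50 bp of summit position relative to the annotated start site (bp, negative is upstream) in each of the 6 libraries, solid lines for batch 1 and dashed lines for batch 2. The lines have their highest bins just upstream of the start, and the medians lie between -83 and -73 bp.

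The share of regions at gene ends was higher among regions called in more libraries. It was 5.45% of the autosomal regions called in 1 library, 13.6% of those called in 2, 15.1% in 3, 17.7% in 4, 18.6% in 5 and 23.3% of those called in all 6. Of each library's autosomal peaks, 9.81% and 19.3% lay at gene ends in DC, 17.0% and 18.0% in DE and 12.4% and 19.5% in WT, in batches 1 and 2. The lowest of these shares belonged to the DC list with the most peaks, 169943, against 50221 to 82080 in the other 5 lists. With 2 libraries per genotype an exact permutation test cannot go below p = 0.333, so genotypes were not tested on this share.

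Gene-end regions were compared with the other constant regions by the number of fragments over the summit (the pileup), the fold over the local background, the local background itself and the peak width. Where a library had several peaks in a region, their widths were summed. The median summit pileup of gene-end regions was 57 and 31 fragments in DC, 44 and 40 in DE and 33 and 51 in WT, in batches 1 and 2. That of the other constant regions was 58 and 22 in DC, 42 and 30 in DE and 34 and 31 in WT. In batch 1 the classes were close in each genotype, whereas in batch 2 the gene-end regions were higher in each. The difference on the log2 scale was -0.03 and 0.49 in DC, 0.07 and 0.42 in DE and -0.04 and 0.72 in WT. Over the 6 libraries it averaged 0.27 ± 0.32 (SD, n = 6) and a difference was not shown (exact sign-flip test, two-sided, p = 0.156; adjusted over 4 measures p = 0.156). Within batches it averaged 0.00 ± 0.06 in batch 1 and 0.54 ± 0.16 in batch 2 (SD, n = 3 each; the smallest exact p with 3 libraries is 0.25).

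Fold enrichment was lower at gene ends in each library. Its median was 17.3 and 10.9 in DC, 10.8 and 12.8 in DE and 9.43 and 9.37 in WT at gene ends, against 22.1 and 12.4 in DC, 13.0 and 15.8 in DE and 12.0 and 10.6 in WT at other constant regions. The log2 difference was -0.27 ± 0.08 (SD, n = 6; exact sign-flip test p = 0.03125, the smallest it can give; adjusted p = 0.0417). The local background was higher at gene ends in 6 of 6 libraries, by 1.00 ± 0.46 on the log2 scale (adjusted exact p = 0.0417). The peak width summed within a region was larger at gene ends in 6 of 6 libraries, by 50 ± 23.6 bp (adjusted exact p = 0.0417). Among regions whose background was under 5 times the library's lowest level, the difference in fold was -0.12 (exact p = 0.156) and that in pileup 0.000258. Such low background was found at 39.4% of gene-end regions and at 72.9% of the other constant regions.

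**Figure D2:**
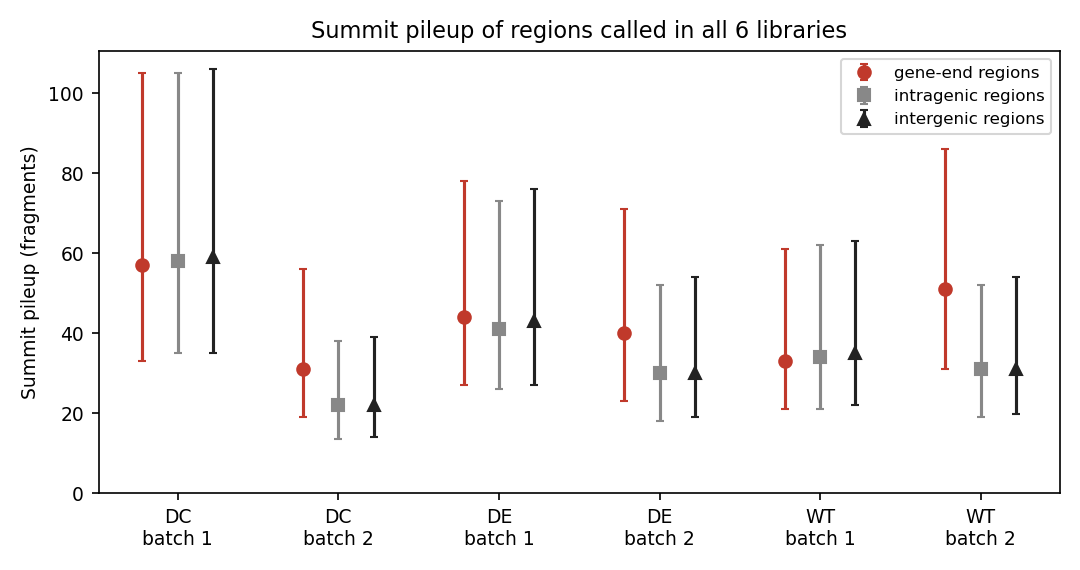
Summit pileup (fragments, not scaled for depth) of gene-end, intragenic and intergenic regions called in all 6 libraries, as the median (point) and interquartile range (bar) in each library. In batch 1 the medians of the 3 classes lie close together, and in batch 2 the gene-end median is above the others in DC (31 against 22 and 22), DE (40 against 30 and 30) and WT (51 against 31 and 31).

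The batch difference was seen at gene starts and not at far ends. After scaling libraries to the same median over all regions called in all 6, the pileup in batch 2 was a median of 1.33 times that in batch 1 at gene-end regions, and 74.9% of them were higher in batch 2. The same ratio was 0.923 at intragenic and 0.916 at intergenic regions. Among gene-end regions it was 1.37 at the 4058 starts and 0.969 at the 361 far ends. By genotype the median log2 difference of batch 2 from batch 1 at gene-end regions was 0.40 in DC, 0.24 in DE and 0.56 in WT. Local background differed at starts and far ends as well. At starts its median was 2.10 and 1.94 in DC, 2.90 and 2.17 in DE and 2.26 and 4.58 in WT, against 1.21 and 0.864 in DC, 1.78 and 0.811 in DE and 1.50 and 2.29 in WT at far ends.

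The regions with a summit inside a RefSeq promoter window, from 250 bases before to 50 bases after a start, were used to describe sequence. These were 2777 regions, set beside 20085 promoters of autosomal protein-coding genes. Their promoters held a median of 22 CpG dinucleotides in 300 bases, against 14 in all promoters, and 61% GC, against 57%. The SP/KLF motif GGGCGG stood in 71.0% of them, against 47.0% of all promoters, the NFY motif CCAAT in 53.2%, against 38.1%, the ETS motif CCGGAA in 32.0%, against 19.1%, and the NRF1 motif GCGCATGC in 7.38%, against 3.55%. TATAAA was found in 6.73%, against 12.7%. Both strands were searched. The C/EBP motif TTGCNNAA stood in 12.7% of the promoters with a region, against 10.3% of all promoters, so its share was close to the background. The palindrome TTGCGCAA and the rare form TGACGCAA were further from it, at 0.828%, against 0.219%, and 2.27%, against 0.647%. A further rare form, TGATGCAA, was close to it, at 0.828%, against 0.762%. The promoters with a region were richer in CpG and GC than all promoters, and the motif shares were not matched for this. A match is a description of the letters, and genes are not replicates, so no test was made.

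Among these promoters the C/EBP motif went with fold enrichment. From the lowest to the highest quartile of mean fold, TTGCNNAA stood in 5.32%, 8.50%, 10.4% and 26.5% of the promoters. The palindrome TTGCGCAA, which is a special case of TTGCNNAA, was found in 0%, 0.144%, 0.144% and 3.03%, against 0.219% of all promoters, and TGACGCAA, which joins a part of the cyclic AMP response element to a part of the C/EBP motif, in 0.288% of the lowest and 4.61% of the highest quartile. The SP/KLF motif ran the other way, with 75.3%, 73.2%, 69.6% and 66.0%. CCAAT stood in 60.4% of the highest and 45.9% of the lowest quartile.

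**Figure D3:**
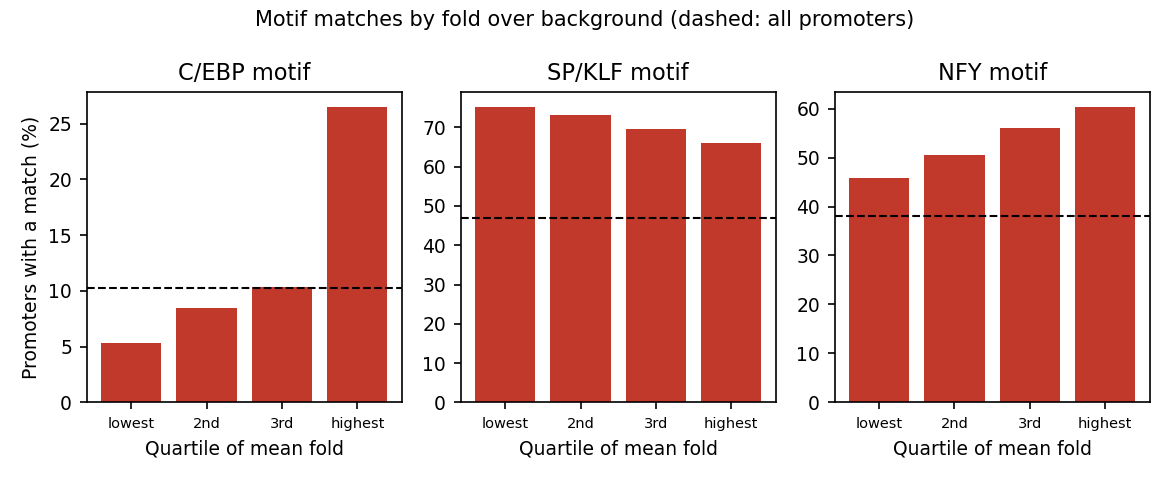
Share of promoters (%) with a match to the C/EBP, SP/KLF and NFY motifs, by quartile of mean fold enrichment among 2777 gene-end regions with a summit in a promoter window. The dashed line is the share of all 20085 promoters. The C/EBP share is 5.32% in the lowest and 26.5% in the highest quartile.

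The median fold was 16.8 at the 352 regions with TTGCNNAA in the promoter and 9.95 at the 2425 without it. At the 23 with the palindrome, such as Smad6 in the sequence shown above, it was 30.2. Regions with TTGCNNAA had the higher median fold in 6 of 6 libraries, at 27.0 and 14.8 in DC, 15.8 and 17.4 in DE and 14.5 and 12.1 in WT. Without it the median was 15.2 and 10.1 in DC, 9.75 and 11.4 in DE and 8.23 and 8.44 in WT. The log2 difference was 0.67 ± 0.13 (SD, n = 6 libraries, which hold the same regions). The match lay within 50 bp of the median summit in 56.3% of the 352, in 29.7% of those in the lowest quartile of fold and in 64.1% of those in the highest. Over all quartiles the same share was 69.7% for CCAAT, 61.1% for GGGCGG, 54.1% for GCGCATGC and 44.3% for CCGGAA. Nearness to the summit was thus not particular to TTGCNNAA.

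Sequence also went with the batch difference. In the quartile of promoters with the smallest ratio of batch 2 to batch 1, 26.9% held TTGCNNAA, 54.2% held GGGCGG and the median CpG number was 16. In the quartile with the largest ratio these were 4.61%, 82.0% and 27. Grouped by CpG number instead, the median ratio was 1.15, 1.42, 1.61 and 1.80 from the lowest to the highest quartile. In the highest quartile it was 1.84 in DC, 1.43 in DE and 2.14 in WT, and in the lowest 1.14 in DC, 1.05 in DE and 1.24 in WT. The ratio was higher in each successive quartile in DC, DE and WT. The median fold over the same CpG quartiles was 12.3, 11.2, 9.93 and 8.85. The background floor also differed between batches, at 1.11 and 0.368 in DC, 1.53 and 0.408 in DE and 1.33 and 0.902 in WT, and its part in the batch difference was not tested.

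**Figure D4:**
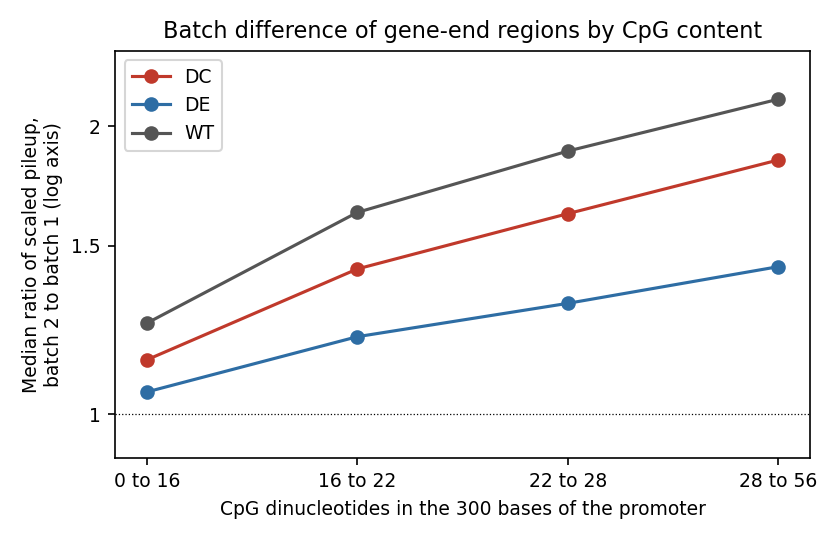
Median ratio of scaled summit pileup in batch 2 to that in batch 1 (log axis) in DC, DE and WT, by quartile of the number of CpG dinucleotides in the promoter, for 2777 gene-end regions. The ratio is higher in each successive quartile in the 3 genotypes, up to 1.84 in DC, 1.43 in DE and 2.14 in WT.

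The genes at these regions spanned blood-cell and general cellular functions. Beside 27.5% of all autosomal protein-coding genes, a region lay at an end of 20 of 28 neutrophil and monocyte genes (71.4%), 10 of 20 stem and progenitor genes (50%), 5 of 15 dendritic cell genes, 2 of 13 erythroid and megakaryocyte genes, 1 of 15 B, T and NK cell genes and 0 of 19 genes of non-haematopoietic tissues. In general functions it lay at 54 of 67 replication-dependent histone genes, 24 of 36 DNA replication genes, 41 of 64 splicing genes, 17 of 28 Mediator genes, 30 of 53 translation initiation factors, 44 of 80 cytosolic ribosomal protein genes, 34 of 78 mitochondrial ribosomal protein genes, 37 of 86 respiratory chain genes, 20 of 48 proteasome genes and 11 of 28 RNA polymerase genes. Zfp zinc-finger genes had 100 of 386 and olfactory receptor genes 5 of 1100 (0.455%). The lists of general functions were formed by gene symbol alone. The initiation factor list thus also holds the kinase gene Eif2ak3, and the histone list takes any H1f gene. Histone genes stand in clusters of near-identical copies, and the treatment of reads that map to several copies is not given in the sources used here.

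The lists also had different median folds and batch ratios, which were not tested. At the genes of the neutrophil and monocyte list the median fold was 23.6 and the ratio of batch 2 to batch 1 was 0.995. At the cytosolic ribosomal protein genes the fold was 10.3 and the ratio 1.68, at the proteasome genes 7.86 and 1.67, and at all genes with a region 11.3 and 1.35. Of the 13 neutrophil and monocyte genes whose promoter window held a summit, 2 had TTGCNNAA, S100a9 and Ms4a3. The dendritic cell genes had a median fold of 15.7 and a ratio of 0.974, over 5 genes, while the stem and progenitor genes had 7.98 and 1.35. The histone genes had 11.1 and 1.21, the Mediator genes 10.8 and 1.32 and the RNA polymerase genes 6.83 and 1.32, so neither blood-cell nor general genes formed a uniform group.

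The myeloid regions with the highest pileup lay at Fes, Spi1, Trib1 and Csf2rb. Strand was not known for Spi1, Trib1 and Csf2rb, so whether their regions lay at a start is not known here. The Spi1 region lay 838 bp from the nearest annotated end. Fes encodes a tyrosine kinase of myeloid cells, Spi1 the factor PU.1, Trib1 a pseudokinase that directs C/EBPα to degradation, and Csf2rb the shared chain of the GM-CSF, IL-3 and IL-5 receptors. At Fes the scaled pileup was 464 and 413 fragments in DC, 418 and 398 in DE and 410 and 425 in WT, in batches 1 and 2. At Spi1 it was 350 and 255 in DC, 259 and 318 in DE and 309 and 273 in WT. The spread over the 6 libraries was small at Fes, with an SD of 0.08 on the log2 scale, and larger at Trib1, with 0.39, where each batch 2 library exceeded each batch 1 library. The granule protein genes Elane, Mpo, Ctsg and Camp, whose products fill the granules of neutrophils, carried regions with mean folds of 17.9, 10.9, 30.2 and 21.1. No region lay at the granule protein genes Prtn3, Ltf and Ngp, nor at Csf3r, Irf8, Klf4, Fcgr3 and Fcgr1.

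Among the stem and progenitor genes, Runx1, Sox4, Tal1 and Meis1, which encode transcription factors of early blood cells, had the highest pileups. Flt3 and Kit, the receptors used in the sort, carried weak regions with mean folds of 7.65 and 6.29. No region lay at Cd34, Myb, Gata2 or Hoxa9. Of the dendritic cell genes, Nfil3 encodes a basic leucine zipper repressor and Xcr1 a chemokine receptor of cDC1. Nfil3 had a scaled pileup of 116 and 121 in DC, 71.1 and 114 in DE and 87.8 and 124 in WT. The region at Xcr1 lay by its far end and also within 1 kb of Fyco1. Zeb2, Batf3 and Id2 had no region by the rule used. The highest regions of the erythroid and megakaryocyte list lay at Nfe2, a basic leucine zipper factor of platelet formation, with a mean fold of 92.4.

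Genes of C/EBPα's own family and of its partners carried regions more often than the 27.5% of all autosomal protein-coding genes. So did other lists, such as the replication-dependent histone genes (80.6%) and the neutrophil and monocyte genes (71.4%). Of 7 genes on the C/EBP family list, 6 carried a region, led by Cebpg, Ddit3 and Cebpa, and Cebpd did not. The 6 include Cebpz, which shares the symbol but does not encode a basic leucine zipper factor. At Cebpa the scaled pileup was 106 and 118 in DC, 76.1 and 131 in DE and 97.9 and 139 in WT, higher in batch 2 within each genotype. Of 20 AP-1 and ATF genes, whose products pair with or resemble C/EBP factors, 15 carried a region, led by Atf4 and Atf5, mediators of the response to amino acid lack and endoplasmic reticulum stress, Fosb and Atf7. Those without a region were Batf, Batf2, Batf3, Mafg and Mafk.

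The highest fold of any gene-end region was at the start of Irf2. Its scaled pileup was 340 and 414 in DC, 279 and 424 in DE and 287 and 420 in WT, higher in batch 2 within each genotype. Ugt1a6a, Gm14548, Ccdc180 and Ugt1a6b followed, with mean folds of 127, 115, 112 and 111. Ugt1a6a and Ugt1a6b encode UDP-glucuronosyltransferases of near-identical sequence, so their separate values are uncertain. Pdss1 was among the 5 highest by pileup at low background, with 292 and 222 in DC, 220 and 261 in DE and 317 and 248 in WT.

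Some regions barely varied and others varied mostly with the batch. The smallest spreads among regions of above-median pileup were at Mrpl47/Ndufb5, Atp6v1a/Naa50, Herpud1, Il6ra and Ebag9, with SDs of 0.06 to 0.07 on the log2 scale. At Herpud1, a gene of the degradation of misfolded proteins at the endoplasmic reticulum, the scaled pileup was 350 and 370 in DC, 354 and 352 in DE and 327 and 336 in WT. At Il6ra, which encodes the IL-6 receptor, it was 216 and 196 in DC, 200 and 204 in DE and 188 and 203 in WT. The largest spreads were at BC005537, Rnf44, Pabpc1, Cuta and Ctu2/Rnf166. Rnf44, shown above, had 24.1 and 132 in DC, 38.5 and 134 in DE and 20.2 and 109 in WT, so that each batch 2 library was above each batch 1 library. Pabpc1, which encodes the poly(A)-binding protein, had 18.5 and 103 in DC, 38.5 and 70.2 in DE and 19.2 and 104 in WT, with the same order.

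At genes with regions at both ends, the ends could differ. Klf2, which encodes a Krüppel-like factor, had a region 84 bp upstream of its start with 37.7 and 81.3 in DC, 60.2 and 86.1 in DE and 32.3 and 90.4 in WT. The region by its far end had 537 and 360 in DC, 468 and 489 in DE and 504 and 482 in WT. The start thus had the lower pileup in each library and was higher in batch 2 in each genotype, whereas the far end was not. Cks2, a subunit of cyclin-dependent kinases, had its high region at the start, with a mean fold of 48.8, and a low one at the other end, with 8.02, which is also the start of Secisbp2.

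The rule's limits fell among ordinary values. The members nearest to the distance limit, at Msgn1 and Cyp4f18, lay 999 bp from an end and had mean folds of 17.5 and 51.8. The constant regions just outside, at Tshz1 and Coasy, lay 1001 and 1002 bp away and had 16.9 and 8.22. The members with the weakest single call were at Colq and Pip4k2a, where the lowest deposited −log10 q over the 6 libraries was 1.03 and 1.04.

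The genotypes were compared at these regions on the log2 scaled pileup with limma, fitted on all 23480 regions called in all 6 libraries. Regions lost or gained outright are not among them, since each had to be called in every library. Without a batch term, 0 gene-end regions passed a Benjamini-Hochberg adjusted p of 0.05 in DC against WT, DE against WT or DC against DE. The share over all regions tested was also 0% in each. An unadjusted limma p under 0.05 was found at 185, 158 and 58 of the 5369 gene-end regions, in that order. Over all regions it was found at 1875, 1144 and 557, so the gene-end shares were below the background. With batch as a term, which the labels define, 54 gene-end regions were higher and 28 lower in DC than in WT, and 18 were higher and 13 lower in DE than in WT. Of all regions tested, 3.15% were higher and 1.17% lower in DC than in WT, and 4.31% in either direction, so the gene-end shares of 1.01% and 0.522% were below the background. For DE against WT 1.12% of all regions were higher and 0.264% lower (1.38% either way), against 0.335% and 0.242% of the gene-end regions. Between DC and DE 1 gene-end region was higher and 1 lower, beside 0.00852% and 0.0213% of all regions tested (0.0298% either way).

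The gene-end regions as a whole moved little between genotypes, and not in the same direction in both batches. Their median log2 difference between DC and WT was 0.01 in batch 1 and -0.15 in batch 2, against -0.02 and 0.03 at the other constant regions. Between DE and WT it was 0.07 and -0.23, against -0.01 and 0.06. Scaled by each library's background floor in place of the median, the median gene-end region was 0.79 higher in DC and 0.49 higher in DE than in WT. On that scale 46 gene-end regions were higher and 0 lower in DC than in WT, so whether regions are called lower depends on the scaling. Counts over all regions tested are not given for that scale or for the fit that follows, so these have no background beside them. Leaving out the batch 2 library of WT gave 32 higher and 1 lower in DC, and 8 higher and 1 lower in DE.

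The regions that differed were also placed at starts or far ends. Of the 54 that were higher in DC, 47 had a known strand and 22 of these (46.8%) lay at a far end, against 8.17% of all gene-end regions of known strand. Of the 18 that were higher in DE, 11 of 16 did (68.8%). Of the 28 that were lower in DC, 2 of 24 did (8.33%), and of the 13 that were lower in DE, 3 of 10 (30%). A background under 5 times the library's lowest level was found at 75.9% of the regions higher in DC and 67.9% of those lower in DC, against 39.4% of all gene-end regions.

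S100a9, a subunit of calprotectin, the calcium-binding protein of neutrophils, had the lowest adjusted p in DC against WT. Its start region had a scaled pileup of 122 and 178 in DC, 68.6 and 101 in DE and 19.2 and 67.2 in WT, in batches 1 and 2. DC lay above WT in both batches, and DE lay between them in each. The log2 difference of DC from WT was 2.03 ± 0.27 (SE; limma with batch as a term, adjusted p = 6.4e-08; 0.264 without it), and leaving out any 1 library gave adjusted p-values up to 0.0069. DE was 1.21 ± 0.27 above WT (adjusted p = 0.0047, up to 0.548 with 1 library left out). The 300 bases of its promoter are shown with TTGCNNAA in capitals, 116.5 bp from the summit.
S100a9 (chr3:90695672-90695971, minus strand): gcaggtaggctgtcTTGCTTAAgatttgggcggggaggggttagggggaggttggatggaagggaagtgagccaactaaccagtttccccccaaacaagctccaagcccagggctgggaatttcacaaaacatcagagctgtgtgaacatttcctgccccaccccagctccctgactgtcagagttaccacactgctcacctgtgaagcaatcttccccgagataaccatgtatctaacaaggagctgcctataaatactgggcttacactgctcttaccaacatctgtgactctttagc
The neighbouring gene S100a8, which encodes the other calprotectin subunit, had a pileup of 107 and 77 in DC, 92 and 95 in DE and 62 and 97 in WT, not scaled, and a log2 difference of DC from WT of 0.15 (adjusted p = 0.841). Ms4a3, a gene of granulocyte and monocyte progenitors, was also higher in DC, by 1.07 on the log2 scale (adjusted p = 0.0101). These were 2 of the 24 regions at neutrophil and monocyte genes, whose median log2 difference of DC from WT was 0.08, and S100a9 was the only one of the 24 that was higher in DE. No region passed in DC, DE or between them by the limma test with batch as a term in the other blood-cell and factor lists. These held 11 (stem and progenitor), 5 (dendritic cell), 1 (B, T and NK), 2 (erythroid and megakaryocyte), 6 (C/EBP family) and 19 (AP-1 and ATF) regions. Of all gene-end regions 1.53% passed in DC against WT, 0.577% in DE against WT and 0.0373% in DC against DE. Lists this small cannot show a difference from those shares.

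The other regions with the lowest adjusted p among those higher in DC were at 4930519G04Rik, Kif9, Trim27 and Anpep. Kif9 encodes a kinesin, Trim27 a RING-finger ubiquitin ligase and Anpep the surface aminopeptidase CD13 of myeloid cells. At Anpep the region lay by the far end, with 63.0 and 65.9 in DC, 44.3 and 30.6 in DE and 24.2 and 11.6 in WT. Its difference of DC from WT was 1.95 ± 0.34 (SE, adjusted p = 5.0e-05), which was 0.128 at most with 1 library left out. At Kif9, also a far end, it was 260 and 163 in DC, 186 and 119 in DE and 110 and 36.8 in WT. In each batch the order was DC, DE and WT, and DC differed from WT by 1.69 ± 0.23 (adjusted p = 2.0e-07). At 4930519G04Rik the difference was 2.25 ± 0.33 (adjusted p = 8.5e-07).

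Trim27 had the lowest adjusted p among those higher in DE. Its region, 923 bp from the start, had 64.2 and 59.8 in DC, 91.2 and 62.3 in DE and 20.2 and 14.7 in WT. Both variants were above both WT libraries, by 1.85 ± 0.31 in DC (adjusted p = 2.1e-05) and 2.13 ± 0.31 in DE (adjusted p = 2.0e-06). Med29, which encodes a Mediator subunit, had 87.7 and 49.1 in DC, 74.4 and 80.4 in DE and 19.2 and 22.1 in WT. The region shared by Cdc26, a subunit of the anaphase-promoting complex, and Slc31a1, a copper transporter, had 53.7 and 50.6 in DC, 48.5 and 55.5 in DE and 14.1 and 15.8 in WT (adjusted p in DE against WT up to 0.0564 with 1 library left out). In these 3 regions the variants did not overlap WT, but the regions were chosen by their low adjusted p in DE against WT. The lack of overlap is therefore not a separate finding. In all, 16 gene-end regions were higher and 4 lower than WT in both variants, counts that share the WT libraries between their comparisons. The same counts over all regions tested are not given here, so these have no background beside them.

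Of the 28 regions that were lower in DC, the 5 with the lowest adjusted p lay at Dnaja3, a mitochondrial co-chaperone, Il10rb, a chain of the IL-10 receptor, Cd300c, an immunoglobulin-like receptor of myeloid cells, Gpr132, a G-protein-coupled receptor, and Plekho2. At Dnaja3 the scaled pileup was 29.0 and 15.3 in DC, 27.6 and 36.2 in DE and 62.6 and 56.7 in WT. DC lay below WT in both batches, by -1.50 ± 0.35 on the log2 scale (SE, adjusted p = 0.0032). At Gpr132 it was 196 and 92.0 in DC, 201 and 88.3 in DE and 311 and 191 in WT. The differences were -0.86 ± 0.22 in DC (adjusted p = 0.0080) and -0.87 ± 0.22 in DE (adjusted p = 0.0153), and the variants lay below WT within each batch. With 1 library left out, the adjusted p of each of these 5 regions in DC against WT exceeded 0.05 in at least 1 fit, up to 0.441.

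Of the 13 regions that were lower in DE, the 5 with the lowest adjusted p lay at Ptpn23, Chd1, Fcor, Irak3 and Gpr132. Chd1 encodes a chromatin remodeller, Irak3 an inhibitor of Toll-like receptor signalling and Ptpn23 a phosphatase-like protein of endosomal sorting. At Ptpn23 the scaled pileup was 44.5 and 62.9 in DC, 27.6 and 29.4 in DE and 83.8 and 71.4 in WT. DE lay below DC and WT in both batches, and its difference from WT was -1.44 ± 0.30 (SE, adjusted p = 0.0019). At Irak3 it was 54.4 and 115 in DC, 45.2 and 66.8 in DE and 74.7 and 175 in WT. There the batch 2 library was the higher one in each genotype, and DE lay lowest in each batch (-1.06 ± 0.26, adjusted p = 0.0134). With 1 library left out, the adjusted p of each of these 5 in DE against WT exceeded 0.05 in at least 1 fit, up to 0.166 at Ptpn23 and 0.420 at Gpr132.

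Between the variants, 2010003K11Rik had 98.8 and 103 in DC and 34.3 and 49.8 in DE, a difference of 1.29 ± 0.28 on the log2 scale. Dynlt1b, a dynein light chain gene, had 45.1 and 65.9 in DC and 126 and 126 in DE, a difference of -1.21 ± 0.26. Each had an adjusted p of 0.0469 (limma with batch as a term), which reached 0.720 at 2010003K11Rik and 0.729 at Dynlt1b with 1 library left out. Dynlt1b stands in a cluster of near-identical copies, so its own value is uncertain.

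**Figure D5:**
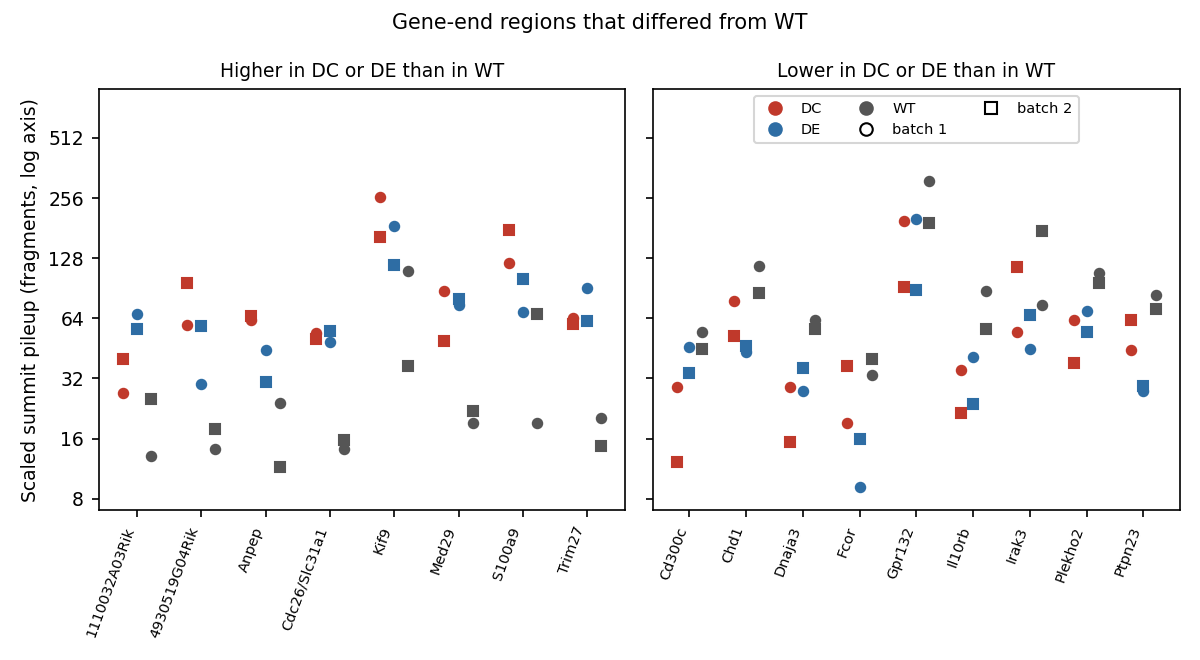
Scaled summit pileup (fragments, log axis) in DC, DE and WT libraries, circles for batch 1 and squares for batch 2, at the gene-end regions with the lowest adjusted p that were higher (left) or lower (right) in DC or DE than in WT. At S100a9 the DC values are 122 and 178, against 19.2 and 67.2 in WT, and at Trim27 the variants lie at 59.8 to 91.2, against 14.7 and 20.2 in WT.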

How the data were processed

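C/EBPα CUT&RUN libraries of DC, DE and WT progenitors, 2 each (1 per batch), were analysed. Per the labels' protocols, digestion lasted 30 minutes, 14 PCR cycles were run and fragments of 150 to 350 bp were enriched. Per the submitters' processing notes, the tools and build included MACS2 2.2.9.1 and mm10, with Bowtie2, HOMER, SAMtools and Trimmomatic also listed. The role of the IgG libraries in peak calling is not given in the sources used here. The deposited peak lists were called per library, and each list's q stays under 0.1. For every peak the authors give a fold (the ratio of summit pileup to local background), −log10 values of p and q, and a score, which is the −log10 q multiplied by 10 and truncated. The lists give no read totals, so the sequencing depth is unknown.

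The pileup k and background λ at each summit were recovered from the deposited fold, (k + 1)/(λ + 1), and the Poisson p-value. A whole k, to within 5% of a step, was found for 99.8% of peaks in the list with the fewest. The commonest background of a library is its floor. Each library's log2 pileups were shifted so that their median deviation from the mean of the libraries was 0 over the 23480 regions present in every list. Genotypes were then compared by limma 3.58.1 in R 4.3.3 with a trended variance, Benjamini-Hochberg adjustment over these 23480 and a threshold of 0.05, without and with batch as a term. The batch of the labels pairs the libraries. Across regions, the batch 2 minus batch 1 differences of 2 genotypes had r = 0.55 (DC and WT), 0.41 (DE and WT) and 0.38 (DC and DE). The scripts were tested on simulated data. The labels do not say whether libraries came from separate animals, so p-values measure the spread between these libraries.

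Gene ends came from a RefSeq table of 21887 protein-coding genes, and strand and promoter sequence from RefSeq promoters of GRCm38.p6, which cover 17492 of them. Where strand is not known the end is neither a start nor a far end. Coordinates are 1-based. Python 3.11.15, numpy 2.4.6, pandas 2.3.3, scipy 1.17.1 and matplotlib 3.10.9 were used. Regions named are, up to 5 each, those with the highest pileup (among regions whose background was under 5 times the floor in each library) or fold, the lowest or highest SD, the lowest adjusted p with the batch term in each direction, and those at the rule's limits or at both ends of a gene, with up to 4 per gene list, named by the genes within 1 kb. Genes singled out beyond this were chosen after their values were seen. The regions, gene lists and motifs were chosen with earlier results of these data known. Alternatives were other scalings, the deposited fold, subtracted background, a minimum mean pileup, other distance limits, stricter peaks and leaving out each library.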

Additional observations from a re-analysis of the deposited data

How the results depend on the processing

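With batch as a replicate block, which pairs libraries by the batch in the labels, there were 82 gene-end calls in DC against WT, 31 in DE against WT and 2 in DC against DE, where the fits without it made 0. All further fits of these comparisons kept the block. Counts over all regions tested are not given for these further fits, so their gene-end counts have no background beside them. In DC against WT they gave 46 calls with scaling by the background floor, 23 on the deposited fold, 80 with the background subtracted and 97 with a mean pileup of at least 20. In DE against WT the deposited fold gave 2 calls, the subtracted background 31 and the pileup minimum 37, and the floor scaling gave 0. In DC against DE the subtracted background gave 1 and the pileup minimum 2. Leaving out the DC, DE and WT libraries in turn, batch 1 before batch 2, gave 18, 17, 106, 112, 61 and 33 calls in DC against WT, 19, 20, 16, 17, 24 and 9 in DE against WT, and 0, 0, 0, 4, 4 and 3 in DC against DE. The lower fold at gene ends was -0.12 with low background only, past the threshold no longer. With 1 library left out it ran from -0.29 to -0.26, the background difference from 0.88 to 1.10 and the width difference from 42.8 to 55.4 bp. These then missed 0.05, since 5 libraries allow no exact p below 0.0625. The number of gene-end regions ran from 4417 to 6814 over distance limits of 500 bp to 2 kb, was 5119 with q of 0.01 or less, and 5406 to 5966 with 1 library left out. No class difference or named region's difference reversed its direction in these settings. The few calls in DC against DE kept no common direction. They were 1 higher and 1 lower with the block, and 0 higher and 1 lower with the background subtracted. The small median difference over gene-end regions changed sign. For DC against WT it was -0.07 as reported, 0.79 with the floor scaling, 0.03 on the deposited fold and 0.04 without WT replicate 2. For DE against WT it was -0.07 as reported, 0.49 with the floor scaling and 0.04 without WT replicate 2 or without DE replicate 2, and for DC against DE 0.01 as reported and -0.11 without DE replicate 2. The cause of these changes was not tested. Depth is unknown, so pileup mixes depth with enrichment.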
